A study of Mus musculus with 6 samples.

Results

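Of the 24817 long non-coding RNA (lncRNA) features listed for these libraries, 3 were described here: NONMMUT122964.1 and NONMMUT150657.1, listed beside Usp18 on chromosome 6, and NONMMUT148390.1, listed near Isg15 on chromosome 4. They were chosen by their feature identifiers after the difference between the groups had been seen, the chromosome 6 pair because its members moved in opposite directions. Differences between the groups in these 3 features are therefore given as descriptions without a test. All 3 held enough reads to be among the 8873 features tested across the table.

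RNA of RAW264.7 cells, a mouse macrophage line, was sequenced in 2 groups of 3 libraries. Every culture had received lipopolysaccharide (LPS, a bacterial cell wall component) for 24 h. In LPS_ES_PMMA the medium was then replaced by an extract of polymethyl methacrylate (PMMA) bone cement that contained the anticoagulant enoxaparin sodium, and in LPS_PMMA by an extract of PMMA cement without it. The titles and treatment labels of the controls name PMMA, but their descriptions and the table's columns name LPS alone, so the plain cement extract rests on the former. No culture without LPS was among the samples, all libraries come from 1 cell line, and nothing states that the 3 libraries of a group were separate cultures, so the spread between them may be technical.

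ISG15 is a small ubiquitin-like protein that is attached to other proteins in cells exposed to interferon. UBA7, UBE2L6 and ligases such as HERC6 attach it, and the protease USP18 removes it. USP18 also binds the interferon receptor subunit IFNAR2 and restrains signalling from it. LPS is sensed by TLR4 on macrophages, which leads to production of interferon-beta and to induction of both genes. The table lists lncRNA features, and the messenger RNAs of Usp18 and Isg15 were not analysed here.

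As listed, NONMMUT122964.1 (chr6:121231803-121233751) is an unspliced feature of 1949 nt labelled intergenic, which overlaps no gene of the GENCODE M21 annotation of mm10, the build the labels name. The nearest genes are Tuba8, an alpha-tubulin gene that ends 4949 bp before it, and Usp18 (chr6:121245906-121270917, plus strand), which starts 12155 bp after it. NONMMUT150657.1 (chr6:121240543-121245589) is also unspliced, at 5047 nt, and ends 317 bp before the Usp18 start. The table labels it bidirectional with Usp18. NONMMUT148390.1 (chr4:156203263-156210998) has 3285 nt of exon in a span of 7736 bp. The table ties it, as exonic and in sense, to AW011738 and not to Isg15. AW011738 is a lncRNA gene in RefSeq and a protein-coding gene in GENCODE M21. The span of the feature covers all 1848 nt of the GENCODE exon of AW011738. How much of that exon lies in the feature's own exons was not determined. The feature starts 2445 bp from the 5′ end of Isg15 (chr4:156199424-156200818, minus strand), which is transcribed away from it.

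The intergenic stretch between the divergent genes Isg15 and AW011738 is where NONMMUT148390.1 begins, so the 250 bases upstream of each gene are shown (RefSeq, GRCm38.p6, 5′ to 3′ along each gene). Capitals in the first sequence (chr4:156200819-156201068, minus strand) mark matches to GAAA followed by any 2 bases and a second GAAA, the repeat found in interferon-stimulated response elements, searched on both strands. Capitals in the second (chr4:156203034-156203283, plus strand) mark the 21 bases from the listed start of NONMMUT148390.1 onward.
Isg15 upstream: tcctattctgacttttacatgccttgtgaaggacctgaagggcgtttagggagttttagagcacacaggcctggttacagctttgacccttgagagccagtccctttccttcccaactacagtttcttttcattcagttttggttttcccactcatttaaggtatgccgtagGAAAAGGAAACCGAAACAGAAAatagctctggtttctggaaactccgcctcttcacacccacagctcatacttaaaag
AW011738 upstream: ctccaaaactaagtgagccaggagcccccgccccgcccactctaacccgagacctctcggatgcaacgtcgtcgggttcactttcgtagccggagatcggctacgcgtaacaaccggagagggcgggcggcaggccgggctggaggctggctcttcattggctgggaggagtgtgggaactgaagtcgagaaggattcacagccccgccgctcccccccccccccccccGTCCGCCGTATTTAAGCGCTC
The Isg15 window held 3 matches, which overlap each other in 22 bases. The AW011738 window held 0. Of 32851 such windows in the RefSeq table, 2.98% held at least 1 match. A match describes letters and not a site of binding.

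To check the listed positions, the assembled transcripts of the same table, which carry MSTRG names, were set against GENCODE M21. Within 6 Mb of NONMMUT122964.1 the table holds 21 assembled transcripts, of which 5 had the start and end of a GENCODE transcript at a common distance. For 4 of them that distance was 23039 bp toward lower positions, and for MSTRG.48168.5, which lies on the other side of Usp18, it was 23037 bp. On chromosome 4, 3 of 12 assembled transcripts matched in the same way, all at 84457 bp toward higher positions and all on the lower side of NONMMUT148390.1. No assembled transcript in either window matched at its listed position. Of the 2305 assembled transcripts of the whole table, 2 lie on a sequence whose name is absent from the mm10 annotation. The other assembled transcripts in both windows matched at no common distance. Those that matched lie 1036118 bp or more from the 3 features, so the offset at the features themselves was not measured. Whether the reads of annotated features were counted in that displaced frame was not tested, and an annotation of GRCm39 was not used here.

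The frame decides which gene the 3 features touch. If Usp18 is moved by the 23039 bp seen in assembled transcripts, both chromosome 6 features fall inside it and no other feature of the table does. NONMMUT122964.1 then spans exon 4 of 11 (146 nt) with parts of introns 3 and 4. In a retained-intron transcript of Usp18, NONMMUT122964.1 overlaps exon 2 by 497 nt. It also spans an exon of Gm44148, an annotated lncRNA on the opposite strand. NONMMUT150657.1 then lies in intron 8 and reaches 83 nt into exon 9, within an intron of Gm44148. In a shorter coding transcript of Usp18, it overlaps exon 1 by 80 nt. On chromosome 4 the same step puts the span of NONMMUT148390.1 over exons 4 to 10 of 9430015G10Rik, with 1555 nt of exon inside that span. How much of this lies in the feature's own exons was not determined. Isg15 is overlapped by 0 features as listed and by 0 after the move.

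**Figure D1:**
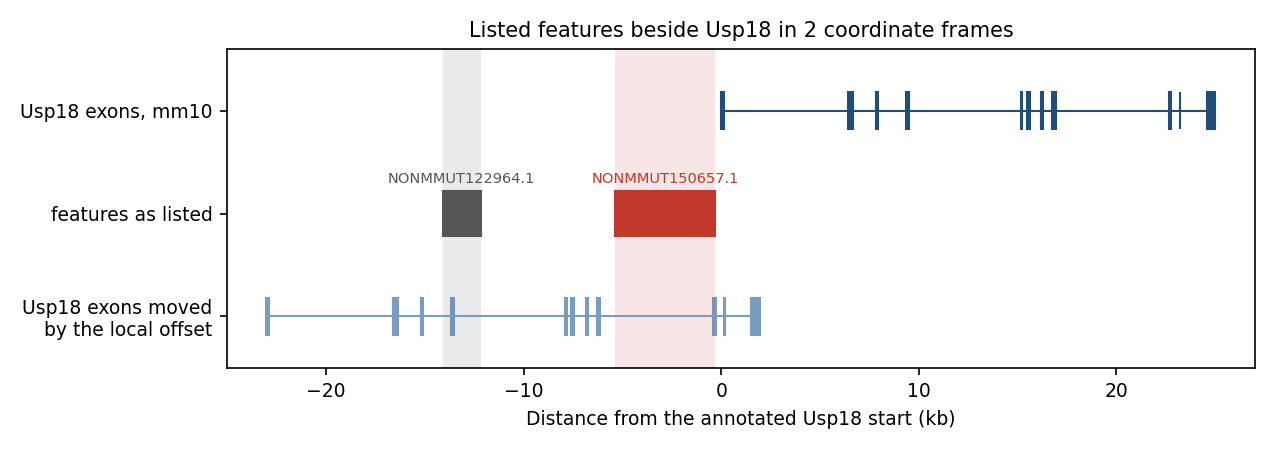
Map of the chromosome 6 locus, with distance from the annotated Usp18 start in kb on the x axis. The upper row shows the 11 Usp18 exons in mm10, the middle row NONMMUT122964.1 and NONMMUT150657.1 as listed, and the lower row the same exons moved by 23039 bp. As listed both features lie before the gene, and against the moved exons they cover exon 4 and intron 8 with part of exon 9.

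The coding exons that the pair would touch are shown from the GENCODE M21 transcript of Usp18 (mm10, plus strand). Exon 4 (chr6:121255264-121255409) is in capitals over the 124 bases it shares with the antisense Gm44148 exon, where reads counted without strand cannot be assigned to either gene. Exon 9 (chr6:121268546-121268677) is in capitals over the 83 bases within the moved NONMMUT150657.1.
Usp18 exon 4: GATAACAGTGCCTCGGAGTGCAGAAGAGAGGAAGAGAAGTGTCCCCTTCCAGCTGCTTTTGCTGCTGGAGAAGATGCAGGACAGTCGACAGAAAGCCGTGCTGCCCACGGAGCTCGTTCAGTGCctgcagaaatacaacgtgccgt
Usp18 exon 9: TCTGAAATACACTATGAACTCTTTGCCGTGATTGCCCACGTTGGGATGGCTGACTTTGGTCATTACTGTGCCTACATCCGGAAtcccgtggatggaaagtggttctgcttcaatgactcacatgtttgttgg
In that frame exon 4 would be overlapped by the feature lower with enoxaparin, and the start of exon 9 by the higher one. The strands of the features were not compared with that of Usp18, so sense and antisense overlap cannot be told apart here.

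NONMMUT122964.1 was the most abundant of the 3 in control cells and was low with enoxaparin. It held 147, 166 and 154 counts in LPS_PMMA 1, 2 and 3, and 26, 6 and 15 in LPS_ES_PMMA 1, 2 and 3. As CPM, counts relative to a library total scaled by the trimmed mean of M-values (TMM), these were 72.3, 65.3 and 55.6 CPM against 6.31, 3.04 and 5.05 CPM. Every control library lay above every enoxaparin library, and the lowest control value was 8.81 times the highest enoxaparin value. The means were 64.4 ± 8.37 CPM (SD, n = 3) in LPS_PMMA and 4.80 ± 1.65 CPM in LPS_ES_PMMA. The fitted log2 fold change was -3.70 (SE 0.34), a 13.0-fold lower level. In such bulk RNA, fewer cells holding a transcript and less of it per cell cannot be told apart.

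NONMMUT150657.1, listed directly before Usp18, differed in the other direction. Its counts were 7, 13 and 16 in LPS_PMMA 1, 2 and 3 and 90, 35 and 60 in LPS_ES_PMMA 1, 2 and 3, or 3.44, 5.12 and 5.78 CPM against 21.9, 17.7 and 20.2 CPM. The groups did not overlap, and the lowest enoxaparin library stood at 3.07 times the highest control library. The means were 4.78 ± 1.20 CPM (SD, n = 3) in LPS_PMMA and 19.9 ± 2.08 CPM in LPS_ES_PMMA, a log2 fold change of 2.04 (SE 0.30) or 4.11-fold higher. These control values rest on 36 reads over 3 libraries.

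NONMMUT148390.1, on chromosome 4, was low with enoxaparin. It had 63, 59 and 62 counts in LPS_PMMA 1, 2 and 3 and 7, 5 and 8 counts in LPS_ES_PMMA 1, 2 and 3. On the CPM scale these were 31.0, 23.2 and 22.4 against 1.70, 2.53 and 2.70. Again the groups did not overlap, with the lowest control library at 8.31 times the highest enoxaparin library. The means were 25.5 ± 4.74 CPM (SD, n = 3) and 2.31 ± 0.534 CPM, a log2 fold change of -3.47 (SE 0.33) or 11.1-fold lower. The enoxaparin values rest on 20 reads over 3 libraries.

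**Figure D2:**
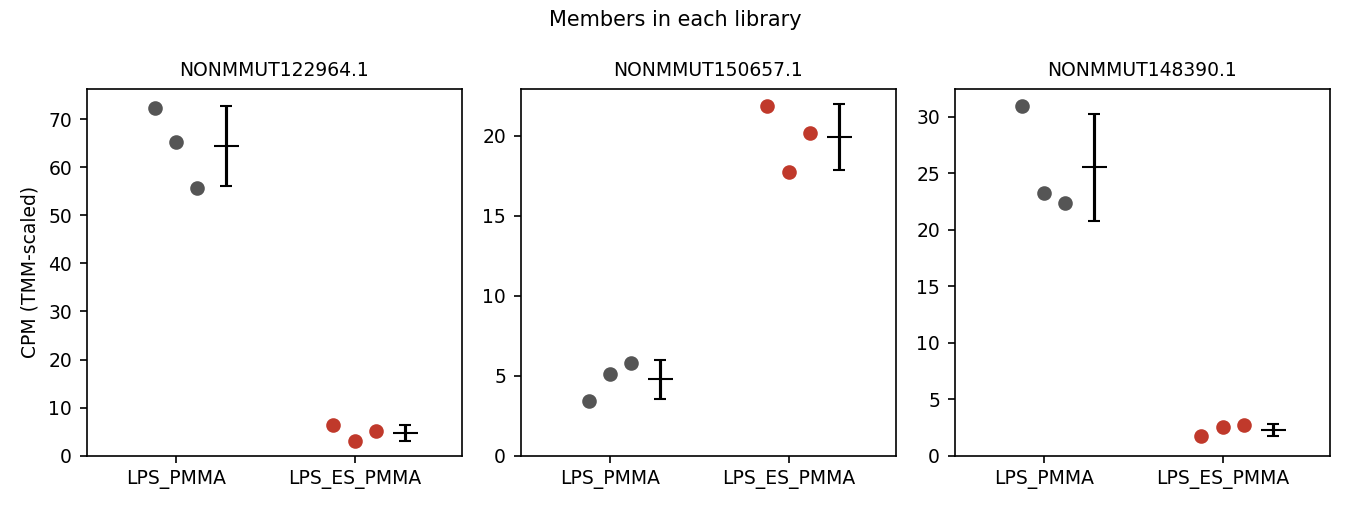
TMM-scaled CPM of the 3 features in each library (y axis, linear from 0) by group (x axis); points are libraries and the bars beside them are the mean and SD of 3 libraries. In no panel do the groups overlap: NONMMUT122964.1 and NONMMUT148390.1 are higher in LPS_PMMA and NONMMUT150657.1 is higher in LPS_ES_PMMA.

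Without overlap between the groups, 2 of the 3 features were lower and 1 was higher in LPS_ES_PMMA. Over all tested features 14.6% were lower and 16.2% higher without overlap, and since the 3 were chosen from this contrast nothing is read from their count. In the quasi-likelihood test of edgeR, adjusted by Benjamini-Hochberg, 2.58% of the tested features were lower and 2.18% higher at an adjusted p under 0.05, 4.76% in all. At an unadjusted p under 0.05 the share was 21.9%. The 422 calls rested on all 6 libraries: with LPS_ES_PMMA 1, 2 or 3 left out there were 54, 112 and 51, and with LPS_PMMA 1, 2 or 3 left out 136, 50 and 125. The split of 193 higher and 229 lower calls was 301 and 68 when libraries were scaled to column totals, and 248 and 96 with the totals that the FPKM columns imply. With these scalings the median change over the whole tested set went from 0.027 to 0.80 and 0.46 on the log2 scale. Relative to that median, NONMMUT122964.1 lay between -3.76 and -3.69, NONMMUT150657.1 between 1.97 and 2.01, and NONMMUT148390.1 between -3.50 and -3.48. Total counts ran from 1123551 in LPS_ES_PMMA 2 to 3697638 in LPS_PMMA 1. In the shallowest library, LPS_ES_PMMA 2, 3 counts equal 1.52 CPM. Without that library the fitted log2 fold changes were -3.46, 2.14 and -3.51, in the order in which the features are named above.

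Levels between features were compared as FPKM, the authors' values per kilobase of feature and library size. In LPS_PMMA the order was NONMMUT122964.1 at 19.3 ± 2.09 FPKM (SD, n = 3), NONMMUT148390.1 at 4.49 ± 0.327 and NONMMUT150657.1 at 0.583 ± 0.256, and no neighbours in that order overlapped. In LPS_ES_PMMA it was NONMMUT150657.1 at 3.17 ± 0.685, NONMMUT122964.1 at 2.0 ± 0.881 and NONMMUT148390.1 at 0.551 ± 0.0713. Here the first pair overlapped, with 2.76 FPKM in the lowest library of NONMMUT150657.1 and 2.97 in the highest of NONMMUT122964.1. By mean FPKM over the 6 libraries, NONMMUT122964.1 stood above 77.8% of the tested features, NONMMUT148390.1 above 28.9% and NONMMUT150657.1 above 19.2%.

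The balance within the chromosome 6 pair was then read in each library, a ratio that does not depend on how libraries are scaled. NONMMUT150657.1 took 77.6%, 85.4% and 80.0% of the reads of the pair in LPS_ES_PMMA 1, 2 and 3, against 4.55%, 7.26% and 9.41% in LPS_PMMA 1, 2 and 3. The group means were 81.0 ± 3.98% and 7.07 ± 2.44% (SD, n = 3), so the feature with fewer reads in control cells held most reads of the pair with enoxaparin. On the log2 scale, with 0.5 added to each count, the ratio of NONMMUT150657.1 to NONMMUT122964.1 was 2.06 ± 0.35 in LPS_ES_PMMA and -3.72 ± 0.54 in LPS_PMMA. The difference was 5.78 (SE 0.37). Per kilobase, NONMMUT122964.1 exceeded NONMMUT150657.1 by 54.4, 33.1 and 24.9 times in the 3 control libraries, and was below it, at 0.748, 0.444 and 0.647 times, in the 3 enoxaparin libraries. The sum of the pair was 69.2 ± 7.25 CPM in LPS_PMMA and 24.7 ± 3.73 CPM in LPS_ES_PMMA. In CPM, the excess of NONMMUT150657.1 with enoxaparin was thus smaller than the deficit of NONMMUT122964.1. Unlike the ratio, the sum depends on library scaling. The TMM factors were 0.559, 0.792 and 0.977 in LPS_PMMA 1, 2 and 3, and 1.29, 1.82 and 0.983 in LPS_ES_PMMA 1, 2 and 3. Unscaled, the pair held 154, 179 and 170 reads in LPS_PMMA 1, 2 and 3, and 116, 41 and 75 in LPS_ES_PMMA 1, 2 and 3.

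**Figure D3:**
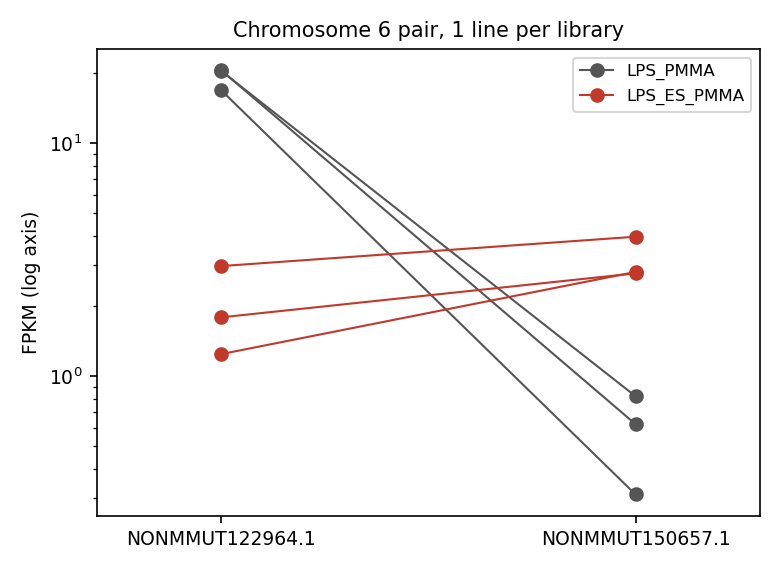
FPKM (log y axis) of the chromosome 6 pair, with 1 line per library joining NONMMUT122964.1 to NONMMUT150657.1. All 3 LPS_PMMA lines fall steeply from left to right, and all 3 LPS_ES_PMMA lines rise.

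Replicates of a group lay close together for these features. The coefficient of variation of CPM over 3 libraries was 13.0% in LPS_PMMA and 34.4% in LPS_ES_PMMA for NONMMUT122964.1, 25.2% and 10.4% for NONMMUT150657.1, and 18.6% and 23.1% for NONMMUT148390.1. The medians of all tested features were 30.5% in LPS_PMMA and 29.0% in LPS_ES_PMMA. NONMMUT122964.1 in LPS_ES_PMMA was the 1 case of the 6 above the median. A choice by the difference between groups favours a small spread within them, so these values too are a description. Across the 6 libraries, Pearson's r of log2(CPM + 0.5) was 0.97 between NONMMUT122964.1 and NONMMUT148390.1, and -0.96 and -0.99 between each of them and NONMMUT150657.1. The 6 points share the split into 2 groups, and the values are given as a description.

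Among features with the same positional label, few changed as much in the same direction as those described. Of 3032 other tested intergenic features, 10 were as low as or lower than NONMMUT122964.1 in log2 fold change, and the median was 0.14. Of 250 other bidirectional features, 5 were as high as or higher than NONMMUT150657.1, with a median of 0.12. Of 1050 other features exonic and in sense, 7 were as low as or lower than NONMMUT148390.1, with a median of 0.090. The features described were chosen after the difference between the groups had been seen, which favours an extreme rank. Their ranks are therefore a description, and nothing is read from them. The labels that define these classes rest on listed positions.

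**Figure D4:**
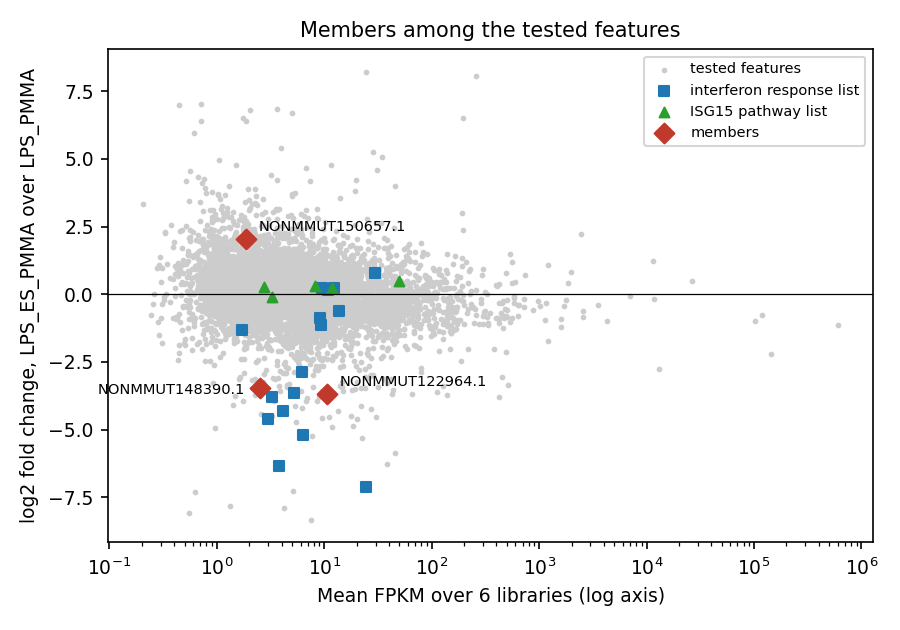
Log2 fold change of LPS_ES_PMMA over LPS_PMMA (y axis) against mean FPKM over 6 libraries (log x axis) for the 8873 tested features, in grey. Diamonds are the 3 features described, squares the 16 tested features of the interferon response list and triangles the 5 of the ISG15 pathway list; NONMMUT122964.1 and NONMMUT148390.1 lie at -3.70 and -3.47, NONMMUT150657.1 at 2.04, and the triangles lie close to 0.

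Few neighbours could be tested. Within 50 kb of the 3 features 14 others were listed and 3 were tested, of which 0 passed edgeR's quasi-likelihood test, beside 4.76% of all tested features, and 0 passed with DESeq2 or limma. Nothing particular to the loci is read from 0 of 3. With an unadjusted p under 0.05 there was 1, beside 21.9% of all tested features. It was ENSMUST00000205150, antisense to an exon of the peroxisome assembly gene Pex26, at 13.6 ± 4.69 CPM in LPS_PMMA and 4.64 ± 1.90 CPM in LPS_ES_PMMA (log2 change of -1.52, SE 0.42, and an adjusted p of 0.0867 in edgeR). NONMMUT058701.2, labelled antibidirectional with Pex26, held 54, 0 and 18 counts in LPS_PMMA and 0, 8 and 0 in LPS_ES_PMMA (adjusted p from edgeR = 0.28). NONMMUT058699.2, which has the same listed start and end and was chosen after its values were seen, held 0 in each control library and 8, 0 and 18 with enoxaparin. How reads were divided between these isoforms was not tested. NONMMUT117879.1, listed over an exon of Samd11, held 12 ± 3.64 CPM in LPS_PMMA and 6.14 ± 5.49 CPM in LPS_ES_PMMA (adjusted p from edgeR = 0.502). With genes moved by the chromosome 4 offset it falls over Agrn.

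At AW011738, 3 further isoforms overlap NONMMUT148390.1 and held almost no reads. NONMMUT051063.2, which has the same listed start, held 1 read in each of the 6 libraries. NONMMUT051061.2 held 1 or 2 reads in each. In NONMMUT051058.2 there were 2, 3 and 2 reads with enoxaparin and 0 in each control library. In the controls NONMMUT148390.1 held 184 reads against 7 in these 3 isoforms together, and with enoxaparin 20 against 13. In LPS_ES_PMMA 2 it held 5 against 5. No source used here says how shared reads were divided. NONMMUT148389.1, the feature that the table does tie to Isg15, had 0, 2 and 0 reads in the controls and 7, 2 and 16 with enoxaparin. It did not reach the minimum for testing and is named here after its values were seen. With genes moved by the chromosome 4 offset, NONMMUT148389.1 and the isoforms above fall over 9430015G10Rik.

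Few features tied to the rest of the ISG15 pathway could be tested. The list held 23 genes: ISG15 itself, the enzymes that attach or remove it, and the interferon receptor arm on which USP18 acts. Without the 3 features described, 19 features were tied to 9 of these genes, and 5 features at 4 genes were tested. By edgeR's quasi-likelihood test 0 passed, 0 had an unadjusted p under 0.05, and 0 passed with DESeq2 or limma. Over all tested features these shares were 4.76% in edgeR and 21.9% unadjusted, and 0 of 5 is not read as a result about the list. The feature in an intron of Stat2, the transcription factor subunit through which USP18 is recruited to the receptor, was MSTRG.6909.1 with 17.0 ± 3.17 CPM in LPS_PMMA and 21.1 ± 7.44 CPM in LPS_ES_PMMA (adjusted p from edgeR = 0.621). NONMMUT144713.1, antisense to an exon of the interferon receptor gene Ifnar1, held 12.5 ± 1.5 and 15 ± 0.434 CPM (adjusted p from edgeR = 0.577). MSTRG.56896.1, antisense to the ubiquitin and ISG15 ligase gene Arih1, held 22.7 ± 4.36 and 31.6 ± 7.18 CPM (adjusted p from edgeR = 0.38). NONMMUT069356.2 at Arih1 and NONMMUT005895.2 at Herc4 lay at -0.12 (SE 0.44) and 0.24 (SE 0.43) in log2 fold change. The median log2 fold change of the 5 was 0.27, beside 0.027 for all tested features. These ties to genes rest on listed positions, also for the assembled transcripts MSTRG.6909.1 and MSTRG.56896.1. No offset was sought at Stat2 or Arih1.

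Features tied to interferon-induced genes included several that fell. This list of 67 genes was chosen with earlier results of these data known, so it is no independent evidence of a direction. Of its 37 features 16 were tested, and by the same edgeR test 9 features at 7 genes fell, 0 rose and 7 did not pass, beside 2.58% of all tested features that fell. The median log2 fold change of the 16 was -2.09, and 12 of 16 had an unadjusted p under 0.05, beside 21.9% of all tested features. Of these 12, 11 were lower and 1, NONMMUT011100.2 (Slfn1), was higher. The 5 largest falls were in NONMMUT084037.1 (Slfn8) at -7.11, MSTRG.29280.1 (Ifit2) at -6.35, MSTRG.3398.1 (Ifi213) at -5.20, MSTRG.29277.1 (Ifit2) at -4.62 and NONMMUT034527.2 (Ifit1bl2) at -4.31. Their SEs were 0.95, 0.82, 0.79, 0.84 and 0.37. With enoxaparin they rested on 6, 2, 2, 6 and 7 reads over 3 libraries, so the sizes depend on the prior count of the fit and are not ranked against the 3 features described. Such features passed the filter on low counts through their control libraries, which favours falls among those tested. Without that filter, the median of the 37 features was -1.13, beside 0.148 for all features. Of the 37, 8 fell and 0 rose, while 110 of all 24817 features fell and 64 rose. NONMMUT011090.2, tied to the Schlafen gene Slfn5, fell at a log2 value of -3.79 with an SE of 0.44 (adjusted p from edgeR = 0.00729). At Parp14, which encodes an ADP-ribosyltransferase, NONMMUT026433.2 fell at a log2 value of -1.14 with an SE of 0.25 (adjusted p from edgeR = 0.0472). With each library left out in turn, this call at Parp14 and that of NONMMUT011098.2 (Slfn2) held in 0 of 6 fits and that of MSTRG.29277.1 (Ifit2) in 1, whereas NONMMUT011090.2 passed in 5 and NONMMUT034527.2 in 6. Of abundant members that did not pass, MSTRG.3401.1 (Ifi209) held 24.1 ± 1.70 CPM in LPS_PMMA and 26.7 ± 4.06 CPM in LPS_ES_PMMA, and NONMMUT011100.2 (Slfn1) 15.4 ± 2.47 and 26.5 ± 7.52 CPM. The number that fell was 2, 4 and 3 without LPS_ES_PMMA 1, 2 and 3, and 6, 3 and 7 without LPS_PMMA 1, 2 and 3. These fits tested 16 to 19 features of the list and 9543 to 10450 in all. Over all tested features the numbers that fell were 39, 79 and 41, and 92, 36 and 84, in the same order. Several of these features are neighbours at 1 locus, and their ties rest on listed positions.

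The tested features whose pattern over the 6 libraries was most like each of the 3 were on other chromosomes, except NONMMUT117699.1, which is also on chromosome 4. For NONMMUT122964.1 these were NONMMUT135390.1 (antisense to Als2cl), MSTRG.962.19 and NONMMUT092974.1, with Pearson's r of 0.997, 0.997 and 0.996. NONMMUT135390.1 held 221 ± 46.1 CPM in LPS_PMMA and 16.6 ± 4.35 CPM with enoxaparin, a log2 difference of -3.73 with an SE of 0.33. The log2 fold changes of the other two were -1.13 and -1.17. For NONMMUT150657.1, with r of 0.998, 0.998 and 0.997, they were MSTRG.52899.1 at 1.01, NONMMUT084895.1 at 2.01 and NONMMUT031416.2 (over an exon of the cyclin Y gene Ccny) at 3.81 in log2 fold change. For NONMMUT148390.1, with r of 0.998, 0.997 and 0.996, they were NONMMUT056500.2 (in an intron of Tbxas1, the thromboxane synthase gene) at -2.74, NONMMUT117699.1 at -3.0 and ENSMUST00000190581 (antisense to Urah) at -3.40. Likeness by r takes no account of the size of change. Between 179 and 214 of 8870 other features exceeded an r of 0.95 with a given one of the 3, and all 6 points share the split into groups.

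The labelled cell type could be read through few features. Of 12 macrophage genes 4 had a tied feature, whose summed counts were 126 to 158 in LPS_PMMA libraries and 67 to 170 in LPS_ES_PMMA libraries, nearly all of them in MSTRG.25685.1, antisense to the macrophage gene Adgre1. In TMM-scaled terms MSTRG.25685.1 was lower with enoxaparin, at 57.3 ± 6.29 CPM in LPS_PMMA and 38.95 ± 5.69 CPM in LPS_ES_PMMA. The gap depends on library scaling: as FPKM, the group means were 20.5 in LPS_PMMA and 18.8 in LPS_ES_PMMA. The fitted log2 fold change of MSTRG.25685.1 was -0.55, and it did not pass (adjusted p from edgeR = 0.238). The other 4 features held few reads. Summed over 3 libraries, those at Csf1r, Ptprc and, for the second feature there, Adgre1 held 0 reads in LPS_PMMA and 8, 8 and 4 in LPS_ES_PMMA, and that at Itgam held 9 and 3. Of the lists for other cell types, B cells, erythroid cells and endothelium had no tied feature, and 2 fibroblast features held 2 to 7 reads in all per library. The T cell list held 22 to 31 reads in LPS_PMMA libraries and 37 to 137 in LPS_ES_PMMA libraries, most of them in NONMMUT057375.2 at Cd8a. On the scaled level that feature had 10.1 ± 1.21 CPM in LPS_PMMA and 26.7 ± 7.47 CPM in LPS_ES_PMMA, and it rose (adjusted p from edgeR = 0.0442). NONMMUT096548.1 at the keratin gene Krt8 had 33 ± 1.8 and 59.5 ± 6.72 CPM and did not pass (adjusted p from edgeR = 0.088). These are lncRNA features tied by listed position and not the marker messenger RNAs. The part of these differences in the values of the 3 features was not tested.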

How the data were processed

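The deposited table holds the authors' whole-number counts per lncRNA feature and their FPKM values, per the file headers, for 6 libraries; 2 further columns hold the authors' group mean FPKM. The deposited log2 fold change equals the ratio of those means, and the deposited p-value and q-value columns hold the authors' edgeR test, going by the table's name; none of them was used for a result. Per the submitters' processing notes the build was mm10. The aligner, the counter and the strand setting were not given in the sources used here. Columns were tied to samples by their titles and descriptions.

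Features were kept by filterByExpr (minimum count 10, minimum total 15) and scaled by TMM. The groups were compared with the quasi-likelihood F-test of edgeR 4.0.16 in R 4.3.3, without covariates, with Benjamini-Hochberg adjustment over 8873 features at 0.05; DESeq2 1.42.0 and limma 3.58.1 were alternatives. Fitted changes use a prior count of 0.125, and the SE is the size of the change over the square root of F. Totals of 1123551 to 3697638 counts per library set the precision; intervals for counting error were not used.

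The 3 features, the lists, the neighbour distance of 50 kb and the rule for named features (the 3 features; tested neighbours; the called and most abundant list members; the 3 features of highest correlation with each) were chosen with earlier results of these data known. A feature was tied to a listed gene through the gene named for it in the table, or where it overlapped that gene in GENCODE M21. A common offset of assembled transcripts was sought within 6 Mb by an equal distance of both ends from a GENCODE M21 transcript. The RefSeq upstream windows included an entry for Isg15 and for AW011738 but none for Usp18, so the bases upstream of Usp18 were not searched for the repeat.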

Additional observations from a re-analysis of the deposited data

How the results depend on the processing

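Each of the 3 features kept its direction under all 14 alternatives. Scaling to column totals gave log2 fold changes of -2.96 for NONMMUT122964.1, 2.77 for NONMMUT150657.1 and -2.70 for NONMMUT148390.1, and totals implied by FPKM gave -3.23, 2.45 and -3.02. With limma on log2(FPKM + 0.1) they were -3.28, 2.32 and -2.82, and on log2(FPKM + 1), which shrinks low values, -2.79, 1.40 and -1.82. Leaving out 1 library at a time gave -3.95 to -3.46, 1.84 to 2.19 and -3.64 to -3.25. The log2 ratio difference of the chromosome 6 pair stayed between 5.49 and 6.02 in 8 alternatives.

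The number of calls over all tested features was 174 without the filter on low counts, where more features were tested, and 50 to 136 with 1 library left out, whichever it was, where fewer samples were fitted. Same-numbered libraries did not deviate together (r of -0.0172, -0.0292 and -0.086). With 3 libraries per group this cannot show whether the numbers pair the samples, and the labels name no pairing. With a replicate block 41 features passed, and 3 in place of 9 of the interferon list, for which leaving out 1 library gave 2 to 7. With the replicate block the 3 features had log2 fold changes of -3.75, 2.05 and -3.46, and the pair ratio difference was 5.78. Counts of 0 for neighbours and for the ISG15 list were 0 under every alternative run, the replicate block included; at 25 kb no neighbour was tested, so that setting gave no value. The ties by gene column alone, chosen after seeing the data, left the interferon list at 9. At the depths of these libraries 3 counts equal 0.728 to 1.52 CPM, and the lower group of each of the 3 features held 20 to 47 reads in all.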
